A study of Mus musculus with 7 samples.

Results

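The 9 chemokine receptor genes described here, which mark infiltrating leukocytes, were followed in bulk RNA sequencing of mouse EMT6 breast tumors. They are Cxcr2, Cxcr3, Cxcr4, Cxcr5, Cxcr6, Ccr1, Ccr2, Ccr7 and Cx3cr1, 9 of the 53465 genes in the table. They were chosen by name from the receptors of neutrophils, monocytes, macrophages, dendritic cells and lymphocytes. No measured value entered the rule, but earlier results of these data were known when they were chosen. EMT6 is a mammary carcinoma cell line, and the study asked what changes in tumors that acquire resistance to an antibody against PD-L1 (αPD-L1). The libraries are 3 replicates each of EMT6-P and EMT6-PTR primary tumor tissue, called tumors here, and a single EMT6-PTR metastasis. All were grown from EMT6 cells implanted in the mammary fat pad of female Balb/c mice of 6 to 8 weeks. EMT6-P tumors were the parental variant under isotype control antibody. EMT6-PTR tumors and the metastasis were the αPD-L1 treatment-resistant variant, which the sample labels write PDR, under αPD-L1. Every group received 250 μg antibody per mouse every 3 days from day 1 until endpoint. The resistant variant was selected in mice under αPD-L1, and as variant and antibody changed together between the groups, they cannot be told apart. The labels do not say whether replicates came from separate mice, and the study calls its replicates technical unless stated otherwise, so p-values measure only the spread between these samples, which may be technical. The labels list the metastasis as breast tumor tissue and give no site and no replicate number.

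Chemokine receptors are receptors of the cell surface coupled to inhibitory G proteins, which steer leukocytes along gradients of secreted chemokines. Cxcr2 and Ccr1 are carried by neutrophils and other myeloid cells, Ccr2 by inflammatory monocytes that leave the bone marrow, and Cx3cr1 by patrolling monocytes and many tissue macrophages. Cxcr3, Cxcr5, Cxcr6 and Ccr7 are known from activated T cells, follicular lymphocytes, resident T cells, and naive T cells with migratory dendritic cells, while Cxcr4 is found on most leukocytes and on many carcinoma and stromal cells. Bulk RNA does not say which cells carried a transcript, and fewer cells of a type and less RNA per cell cannot be told apart.

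Of the 9 genes, 5 lie on chromosome 9 of the mouse build GRCm38, and 3 of these share a receptor cluster: Cxcr6 (chr9:123806475-123811760, + strand), Ccr1 (chr9:123962124-123968692, − strand) and Ccr2 (chr9:124101950-124113557, + strand). Cxcr5 (chr9:44511787-44561877, − strand) and Cx3cr1 (chr9:119901616-120069879, − strand) lie outside it. Cxcr2 (chr1:74153989-74161246, + strand) and Cxcr4 (chr1:128588199-128592293, − strand) are on chromosome 1, Ccr7 (chr11:99144196-99155077, − strand) is on chromosome 11 and Cxcr3 (chrX:101731535-101734269, − strand) on chromosome X. The estimated counts of Ccr2 and Cxcr5 were fractional in all 7 libraries. RSEM, which made these counts, divides reads that match more than 1 place by estimation, and such values are less certain than whole counts. Of the windows of 50 bases in the transcripts of Cxcr2, 4.01% also occurred in another gene, and the share was 0.27% for Cx3cr1. No such window was found for Cxcr3, Cxcr4, Cxcr5, Cxcr6, Ccr1 or Ccr7.

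The upstream sequences of Cxcr2 and Ccr1 are shown because these receptors had the highest levels per length in the metastasis. RefSeq promoter sequences of build GRCm38.p6 were at hand for 7 of the 9 receptors, not for Cxcr5 and Ccr7. The 250 bases before the start site are given on the strand of the gene, with GAGGAA or its reverse complement in capitals. They lie at chr1:74153744-74153993 (+ strand) and chr9:123968693-123968942 (− strand).
Cxcr2: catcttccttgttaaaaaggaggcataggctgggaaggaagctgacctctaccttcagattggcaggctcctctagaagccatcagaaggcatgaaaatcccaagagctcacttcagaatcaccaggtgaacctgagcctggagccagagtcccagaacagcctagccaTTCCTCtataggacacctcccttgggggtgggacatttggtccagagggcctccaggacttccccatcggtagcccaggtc
Ccr1: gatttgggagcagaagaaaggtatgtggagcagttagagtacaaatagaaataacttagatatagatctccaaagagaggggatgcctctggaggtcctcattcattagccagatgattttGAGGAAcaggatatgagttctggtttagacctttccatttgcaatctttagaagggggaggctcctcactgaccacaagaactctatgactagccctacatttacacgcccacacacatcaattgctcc
The letters GAGGAA, searched on both strands, occurred in this window of Cxcr2, Ccr1 and Cxcr3 and in 23.3% of 32851 promoters. The longer AGAGGAAG, which contains them, was found in Cxcr3 alone (3.7% of promoters) and TTGCNNAA in none of the 7 (9.6%). TGTGGT occurred in Cx3cr1, Cxcr6, Ccr1 and Cxcr3 (14.0%) and CACCC in Cxcr2, Cxcr4 and Cx3cr1 (52.0%). These are matches of letters and not binding sites.

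The libraries held between 20430110 and 25213472 estimated counts in all. Counts were scaled by upper-quartile factors and are given as CPM, the counts of a gene relative to the scaled size of its library. When resistant tumors were compared with parental tumors, 15645 genes passed the filter on low counts, among them 7 of the 9 receptors, and Cxcr3 and Cxcr5 did not pass. EMT6-PTR replicate 3 stood apart from the other tumors in genes that are no receptors. Its summed CPM of 6 pan-leukocyte genes (Ptprc, Coro1a, Laptm5, Cd52, Cd53 and Lcp1) was 408 against 724 to 873 in the other 5 tumors. That of 5 carcinoma genes (Krt8, Krt18, Krt14, Krt5 and Epcam) was 608 against 2370 to 2720. Krt8, Krt18 and Krt14 were lowest there, while Krt5, at 1.13 CPM, and Epcam, at 8.83 CPM, lay within the other tumors. The summed CPM of 5 fibroblast genes was 16000 against 3320 to 5910. EMT6-PTR replicate 1 stood apart in 4 skeletal muscle genes, with a summed CPM of 3160 against 2.85 to 563 in the other tumors. The spread was wider among the resistant tumors, with a common dispersion of 0.246 against 0.0266 among the parental tumors.

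Per kb of exon, taken over the union of exons of a gene, Cx3cr1 and Ccr1 had the highest mean levels in both groups of primary tumors. In EMT6-P, Cx3cr1 had the highest mean level at 21.8 ± 1.75 CPM per kb (SD, n = 3), followed by Ccr1 at 25.1, 17.2 and 17.7 CPM per kb in replicates 1 to 3 and Ccr2 at 12.5 ± 3.54 CPM per kb. Cxcr4 was close behind at 11.8 ± 1.6 CPM per kb. The ranges of Cx3cr1 and Ccr1 overlapped and so did those of Ccr2 and Cxcr4, while the range of Ccr1 lay above that of Ccr2. The order of Ccr1 and Ccr2 rests on the length used, 2833 bases for Ccr1 and 6760 for Ccr2. In CPM the EMT6-P mean was 56.6 for Ccr1 and 84.2 for Ccr2. The lymphocyte receptors were far lower, with Cxcr6 at 2.6 ± 0.3, Ccr7 at 0.91 ± 0.347, Cxcr3 at 0.328 ± 0.168 and Cxcr5 at 0.0759 ± 0.0209 CPM per kb. Cxcr2 stood among them at 0.508 ± 0.118 CPM per kb, with a range that overlapped that of Cxcr3. EMT6-PTR began with the same pair, Cx3cr1 at 20.2 ± 14.3 and Ccr1 at 16.3 ± 6.61 CPM per kb (SD, n = 3). There Cxcr4 came next at 13.5 ± 5.1 CPM per kb, ahead of Ccr2 at 10.6 ± 8.66 CPM per kb. In EMT6-PTR each receptor down to Cxcr2 overlapped in range with the next. Only Cxcr3 and Cxcr5, the last pair, did not overlap.

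**Figure D1:**
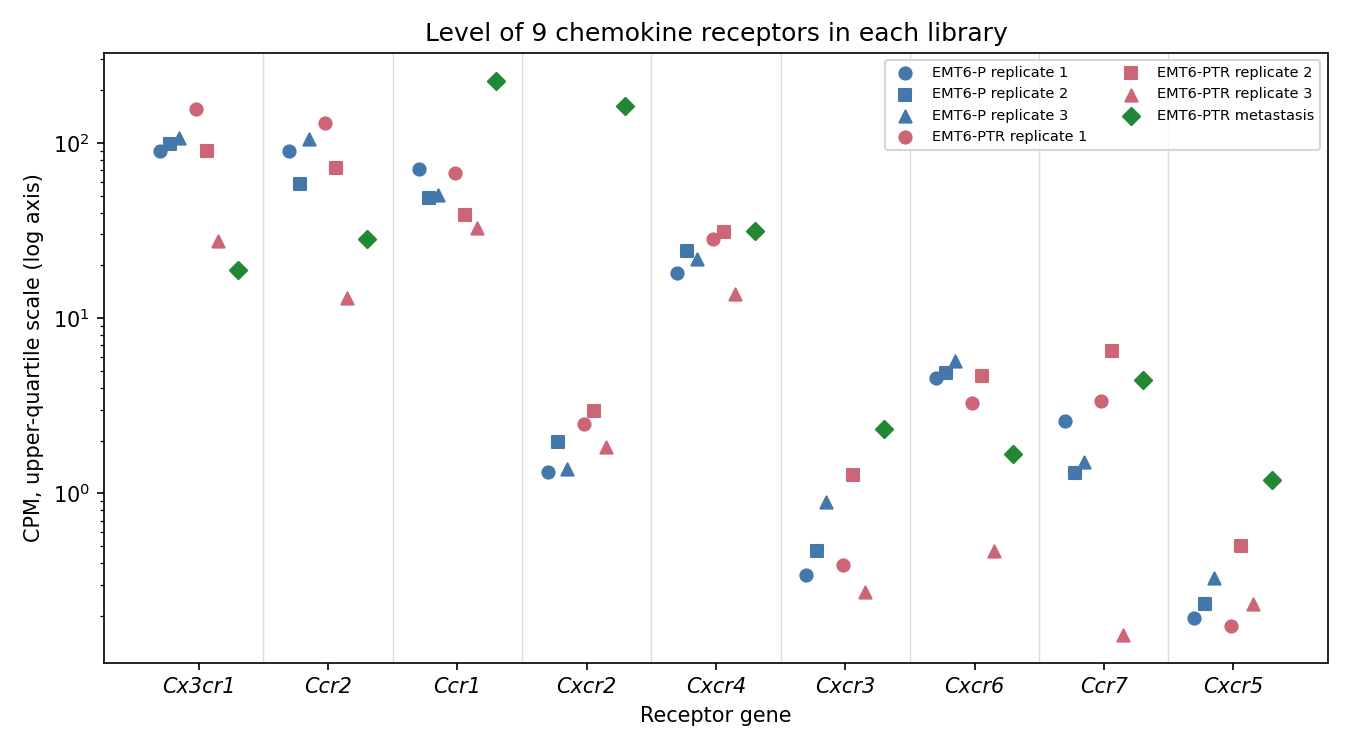
Level of the 9 receptors in each library, as CPM on the upper-quartile scale on a log axis, with 1 point per library (blue for EMT6-P, red for EMT6-PTR, green for the metastasis). EMT6-PTR replicate 3 was the lowest of the 6 tumors for 7 receptors, and Cxcr2 was at 162 CPM in the metastasis against at most 2.95 CPM in the tumors.

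The first comparison asked whether receptor levels differed between resistant and parental primary tumors. No receptor passed the test: 0 of the 7 tested had an adjusted p under 0.05, where 0.0% of all genes did (0 of 15645, quasi-likelihood test of edgeR, adjusted after Benjamini and Hochberg). Without adjustment, 0 of the 7 had a p under 0.05, against 11.4% of all genes. DESeq2 called 281 genes, none of them a receptor, and limma-voom called 0. For 0 of the 9 did the 3 EMT6-PTR values lie all above or all below the 3 EMT6-P values, against 21.3% of the genes tested. The fitted log2 fold change was above 0 for 3 receptors and below 0 for 4, with a median of -0.11 beside 0.03 over all genes. With 3 tumors per group, an exact permutation test cannot go below a two-sided p of 0.1.

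Cx3cr1, the fractalkine receptor, was at 90.2, 98.5 and 106 CPM in EMT6-P replicates 1 to 3 and at 156, 89.5 and 27.5 CPM in EMT6-PTR replicates 1 to 3. EMT6-PTR thus held both the highest and the lowest tumor, and the groups overlapped. The means were 98.2 ± 7.87 and 91.0 ± 64.3 CPM (SD, n = 3 each), with a log2 fold change of -0.11 (SE 0.55, edgeR adjusted p = 0.945). The direction turned without EMT6-PTR replicate 3, where it was 0.32 (adjusted p = 0.463), and with limma-voom sample weights, where it was 0.11.

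Ccr2, the receptor for Ccl2 on inflammatory monocytes, was at 89.6, 58.0 and 105 CPM in EMT6-P and at 130, 71.7 and 13.1 CPM in EMT6-PTR. Here too EMT6-PTR replicate 1, the tumor with the high muscle genes, was highest and replicate 3 lowest, and the part of that tissue in the level was not tested. The means were 84.2 ± 24.0 and 71.7 ± 58.5 CPM (SD, n = 3 each). The log2 fold change was -0.23 (SE 0.72, edgeR adjusted p = 0.909), and without EMT6-PTR replicate 3 it was 0.26 (adjusted p = 0.676). The levels of Ccr2 and Cx3cr1 moved together across the tumors (Pearson's r of log2 CPM = 0.969, Spearman's rho = 0.829, 6 tumors), in a set where EMT6-PTR replicate 3 was low for both. Over all 7 libraries r was 0.893.

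Ccr1, the receptor of monocytes and neutrophils for Ccl3, Ccl5 and Ccl7, was at 71.0, 48.6 and 50.1 CPM in EMT6-P and at 67.5, 38.6 and 32.5 CPM in EMT6-PTR. EMT6-PTR replicate 1 lay inside the range of EMT6-P, and the other EMT6-PTR tumors lay below it. The means were 56.6 ± 12.5 and 46.2 ± 18.7 CPM (SD, n = 3 each), and the log2 fold change was -0.29 (SE 0.31, edgeR adjusted p = 0.704). It was -0.67 with EMT6-PTR replicate 1 left out and -0.09 with replicate 3 left out.

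Cxcr2, which guides neutrophils toward Cxcl1, Cxcl2 and Cxcl5, had few counts in the primary tumors: 27, 42 and 29 estimated counts in EMT6-P and 57, 53 and 47 in EMT6-PTR. Scaled, these were 1.32, 1.96 and 1.37 CPM in EMT6-P and 2.49, 2.95 and 1.84 CPM in EMT6-PTR. The groups overlapped by 1 tumor, since EMT6-PTR replicate 3 lay below EMT6-P replicate 2. The means were 1.55 ± 0.359 and 2.43 ± 0.56 CPM (SD, n = 3 each). The log2 fold change was 0.64 (SE 0.34, edgeR adjusted p = 0.489, unadjusted p = 0.104), and it was above 0 in every alternative fit.

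Cxcr4, the receptor for Cxcl12, was at 18.2, 24.0 and 21.7 CPM in EMT6-P and at 28.1, 31.1 and 13.8 CPM in EMT6-PTR. EMT6-PTR replicates 1 and 2 were above all EMT6-P tumors and replicate 3 was below all of them. The means were 21.3 ± 2.89 and 24.3 ± 9.22 CPM (SD, n = 3 each), with a log2 fold change of 0.19 (SE 0.31, edgeR adjusted p = 0.813). Leaving out EMT6-PTR replicate 2 gave -0.02, and leaving out replicate 3 gave 0.47.

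Among the lymphocyte receptors, Ccr7, the receptor for Ccl19 and Ccl21, was at 2.58, 1.31 and 1.51 CPM in EMT6-P and at 3.36, 6.46 and 0.156 CPM in EMT6-PTR, where replicate 3 held 4 estimated counts and replicate 2 held 116. The pattern was that of Cxcr4, with 2 EMT6-PTR tumors above and 1 below all EMT6-P tumors. The means were 1.80 ± 0.685 and 3.33 ± 3.15 CPM (SD, n = 3 each), and the log2 fold change was 0.88 (SE 1.03, edgeR adjusted p = 0.733). It was 0.12 with the replicate number as a block, -0.04 without EMT6-PTR replicate 2 and -0.30 under limma-voom, and 1.44 without EMT6-PTR replicate 3 (adjusted p = 0.163). EMT6-PTR replicate 2 also had the highest summed CPM of 10 T cell genes, 28.7 against 7.43 to 11.8 in the other tumors, whose part in the level of Ccr7 was not tested.

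Cxcr6, the receptor for Cxcl16 on resident T cells and NKT cells, was at 4.53, 4.86 and 5.66 CPM in EMT6-P and at 3.27, 4.68 and 0.469 CPM in EMT6-PTR. EMT6-PTR replicate 2 lay inside the range of EMT6-P, and the other EMT6-PTR tumors lay below it. The means were 5.02 ± 0.58 and 2.81 ± 2.14 CPM (SD, n = 3 each), with a log2 fold change of -0.84 (SE 0.72, edgeR adjusted p = 0.638) that ranged from -1.43 without EMT6-PTR replicate 2 to -0.34 without replicate 3 and was -1.45 under limma-voom. Cxcr3, the receptor for the interferon-induced Cxcl9 and Cxcl10, held 7, 10 and 19 estimated counts in EMT6-P and 9, 23 and 7 in EMT6-PTR. Cxcr5, the receptor for Cxcl13, held 4.03, 5.04 and 7.05 in EMT6-P and 4.01, 9.05 and 6.09 in EMT6-PTR. Neither passed the filter on low counts, and in the fit without that filter 0 of the 9 receptors was called or had an unadjusted p under 0.05 (edgeR).

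**Figure D2:**
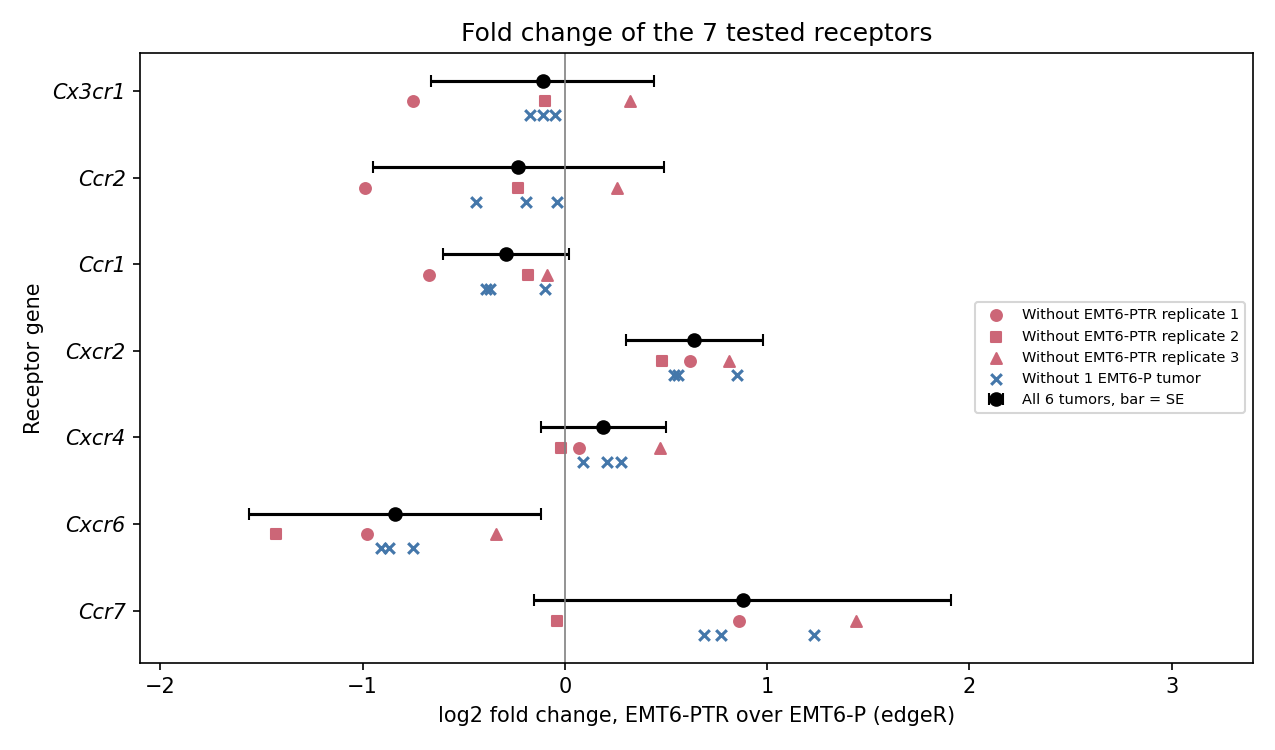
Log2 fold change of the 7 tested receptors, EMT6-PTR over EMT6-P, from edgeR: black points with SE bars for all 6 tumors, red points without 1 EMT6-PTR tumor and blue crosses without 1 EMT6-P tumor. Leaving out EMT6-PTR replicate 3 moved all 7 upward, for example from -0.23 to 0.26 for Ccr2 and from 0.88 to 1.44 for Ccr7.

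A single tumor thus set much of the spread. EMT6-PTR replicate 3 was the lowest of the 6 tumors for 7 of the 9 receptors and for 6 of the 7 tested, against 34.5% of all genes tested, and Cxcr2 and Cxcr5 were the exceptions. The summed CPM of the 9 receptors was 238 to 293 in EMT6-P, 391 and 247 in EMT6-PTR replicates 1 and 2, and 89.9 in replicate 3. Against the mean of EMT6-PTR replicates 1 and 2, replicate 3 was at 0.0318 of the level for Ccr7, 0.118 for Cxcr6, 0.13 for Ccr2 and 0.224 for Cx3cr1, but at 0.613 for Ccr1 and 0.675 for Cxcr2. Its summed macrophage level, over Adgre1, Csf1r, Cd68, Mrc1, C1qa, C1qb and C1qc, was 1470 CPM, near the low end of the other tumors, 1460 to 1770 CPM. The C1q genes carry most of that sum, and 3 of the 7 genes were lowest in this tumor: Adgre1 at 0.462 of the lowest of the other tumors (43.4 CPM), Csf1r at 185 against 231 to 358 CPM and C1qa at 380 against 402 to 480 CPM. The mean log2 CPM of the 7 was also lowest there, 7.23 against 7.38 to 7.65. Its summed level of 4 monocyte genes was the highest, 182 against 41.4 to 92.3 CPM, of which Plac8 made up 115 CPM. F13a1 (60.9 against 20.1 to 48.0 CPM) and Chil3 (2.03 against 0.0934 to 1.80 CPM) were also highest there. Ly6c2, at 3.75 against 2.99 to 7.02 CPM, was not. Its summed level of 5 dendritic cell genes was the lowest, 17.0 CPM against 28.5 to 74.4 CPM, through Itgax at 5.31 against 22.6 to 68.5 CPM. Zbtb46 (10.2 against 3.97 to 5.61 CPM) and Clec9a (1.13 against 0.234 to 0.755 CPM) were highest there. The mean log2 CPM of the 5 genes, 0.26, lay within -0.30 to 1.29 in the other tumors. Its neutrophil level, 33.8 CPM, lay within 23.8 to 58.4 CPM. The part of these cell types, and of the fibroblast and carcinoma gene levels given above, in the low receptors was not tested.

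Without EMT6-PTR replicate 3, Cxcr2, Cxcr4 and Ccr7 were higher in both remaining EMT6-PTR tumors than in all EMT6-P tumors, while for 40.0% of all genes tested the groups then did not overlap. The same 3 receptors had an unadjusted p under 0.05 in that fit, against 20.4% of all genes, and adjusted p-values of 0.219, 0.167 and 0.163 (edgeR). None was called. With other tumors left out, fewer receptors were separated. Ccr1 and Cx3cr1 were lower in EMT6-PTR without EMT6-PTR replicate 1, 2 of the 9 where the groups did not overlap for 38.6% of all genes. Cxcr6 was lower without EMT6-PTR replicate 2 (1 of 9 against 30.0%) and without EMT6-P replicate 1 (1 of 9 against 25.5%). Cxcr2 was higher without EMT6-P replicate 2 (1 of 9 against 28.0%), and no receptor was separated without EMT6-P replicate 3 (0 of 9 against 29.5%). With CPM on the total count Cxcr6 was lower in EMT6-PTR, 1 of 9 against 17.1% of all genes.

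The receptors were next read relative to the leukocyte genes of the same tumor, as log2 CPM of the receptor minus the mean log2 CPM of the 6 pan-leukocyte genes. Cxcr2 was at -6.33, -5.79 and -6.09 in EMT6-P and at -5.44, -5.20 and -4.75 in EMT6-PTR on this scale. All EMT6-PTR tumors lay above all EMT6-P tumors, by 0.94 in the mean (exact permutation p = 0.1, two-sided, the smallest that 3 against 3 allows). Cxcr4 was at -2.62, -2.24 and -2.19 in EMT6-P and at -1.99, -1.84 and -1.90 in EMT6-PTR, and these groups did not overlap either, with a difference of 0.44 (exact permutation p = 0.1, two-sided). So 2 of the 7 tested receptors were separated on this scale, against 12.7% of all genes, and the p-values over 9 receptors were not adjusted. Both rested on the choice of reference: with Ptprc alone in place of the list, the difference was 0.54 for Cxcr2 (exact permutation p = 0.3) and 0.05 for Cxcr4 (exact permutation p = 0.9). Cxcr6 had the largest difference downward, -0.97 (exact permutation p = 0.2), and -1.36 with Ptprc alone (exact permutation p = 0.1). For Ccr1, Ccr2, Ccr7, Cx3cr1, Cxcr3 and Cxcr5 the differences lay between -0.39 and 0.45, with exact permutation p-values from 0.4 to 0.9.

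**Figure D3:**
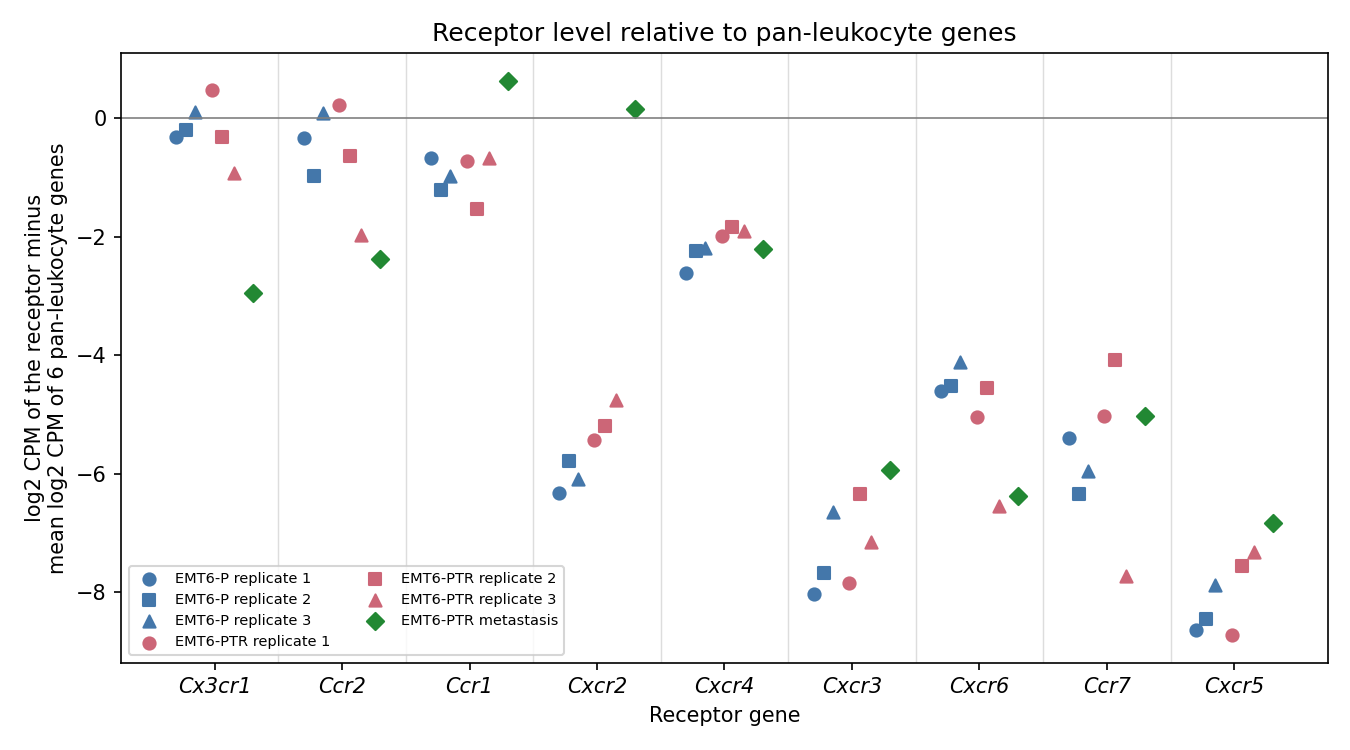
Receptor level relative to leukocyte genes, as log2 CPM of the receptor minus the mean log2 CPM of 6 pan-leukocyte genes, with 1 point per library. The EMT6-PTR points of Cxcr2 and Cxcr4 lie above their EMT6-P points, and the metastasis lies above all 6 tumors for Cxcr2, Cxcr3, Cxcr5 and Ccr1 and below all 6 for Ccr2 and Cx3cr1.

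The metastasis was a single library and was set beside the tumors without a test. The order of the receptors differed from that in the tumor groups. Ccr1 at 79.7 CPM per kb and Cxcr2 at 53.2 CPM per kb came first, followed by Cxcr4 at 17.4, Cx3cr1 at 4.2 and Ccr2 at 4.15 CPM per kb. As a share of the summed CPM per kb of the 9 receptors, Cxcr2 made up 32.5% in the metastasis and 0.593% to 2.13% in the 6 tumors. Ccr1 made up 48.8% against 19.8% to 40.6%. Cx3cr1 made up 2.57% against 21.5% to 35.4%, and Ccr2 2.54% against 6.84% to 21.1%.

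**Figure D4:**
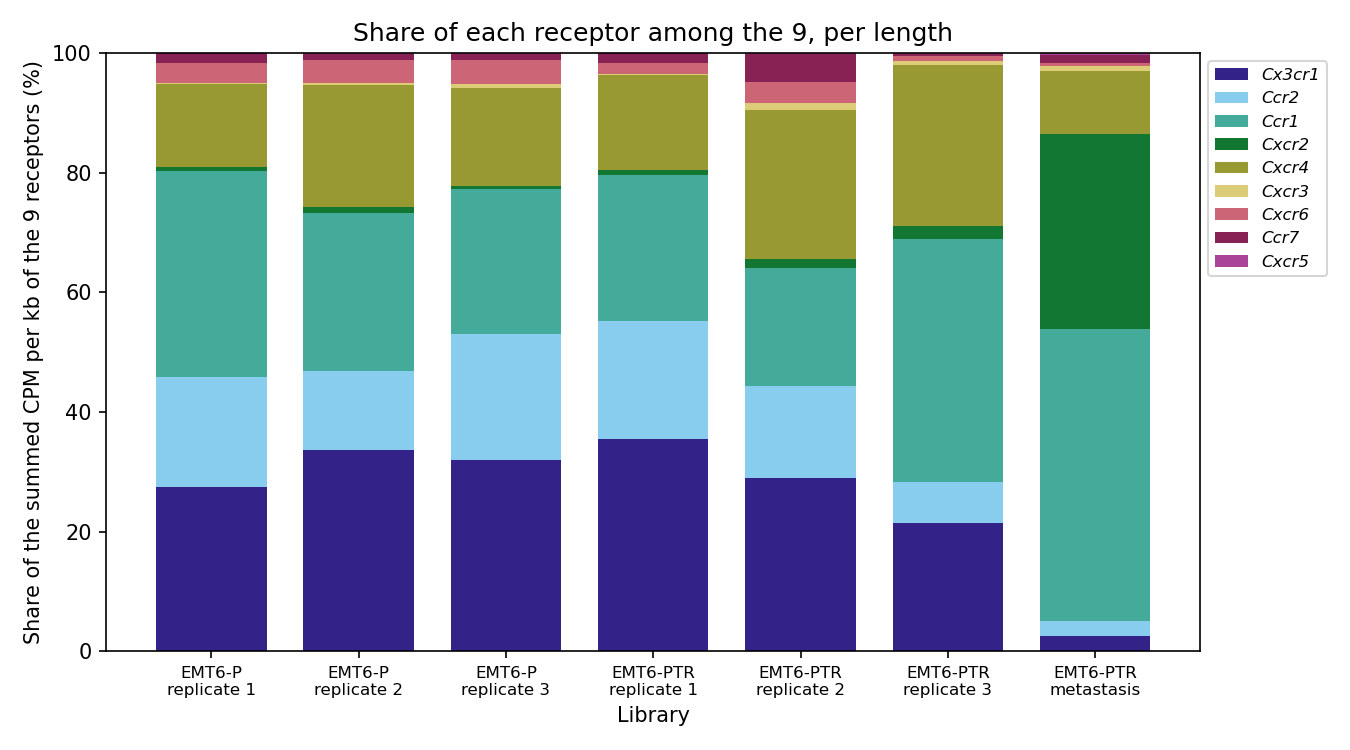
Share of each receptor in the summed CPM per kb of the 9, in percent, with 1 bar per library. Cx3cr1, Ccr2, Ccr1 and Cxcr4 fill most of each tumor bar, while Ccr1 (48.8%) and Cxcr2 (32.5%) fill most of the bar of the metastasis.

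In CPM, 5 of the 9 receptors were above all 6 tumors in the metastasis (Cxcr2, Cxcr3, Cxcr4, Cxcr5 and Ccr1), among them 3 of the 7 that passed the filter, against 20.9% of all genes tested. Cx3cr1 alone was below all 6, where 24.1% of all genes were. Cxcr2 was at 162 CPM, or 4056 estimated counts, 66.8 times the mean of the EMT6-PTR tumors and 54.9 times the highest tumor. Ccr1 was at 226 CPM, 4.89 times the EMT6-PTR mean and 3.18 times the highest tumor. Cxcr4, at 31.5 CPM, was only 1.01 times the highest tumor. The receptors with few counts, Cxcr3 at 58 estimated counts and Cxcr5 at 30.29, were at 1.81 and 2.39 times the highest tumor in CPM.

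On the log2 scale, with a prior count of 2, 3 of the 7 filtered receptors were at least 2-fold above the mean of the EMT6-PTR tumors, against 12.4% of all genes: Cxcr2 by 6.04, Ccr1 by 2.36 and Ccr7 by 1.35. The value of Ccr7 rested on EMT6-PTR replicate 3 and was -0.07 without it, and its 4.44 CPM lay within the tumors. Cx3cr1 was at least 2-fold below, 1 of 7 against 8.58% of all genes, with a difference of -1.94 and a level of 18.9 CPM, where the lowest tumor was 1.45 times as high. Ccr2, at 28.1 CPM, and Cxcr6, at 1.68 CPM, lay within the tumors, above EMT6-PTR replicate 3 and below the other 5. Their differences from the mean of EMT6-PTR were -0.82 and -0.23. Ccr2 was at -0.13 without EMT6-PTR replicate 1 and at -1.78 without replicate 3, and Cxcr6 was at 0.37 without EMT6-PTR replicate 2 and at -1.18 without replicate 3.

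Relative to the pan-leukocyte genes, whose summed CPM was 1070 in the metastasis and 408 to 873 in the tumors, Cxcr2 was 5.28 above the EMT6-PTR mean and Ccr1 1.60 above it on the log2 scale. Cxcr3 and Cxcr5, by 1.20 and 1.04, also lay above all 6 tumors. Cxcr4 then lay within the tumors, -0.30 from the EMT6-PTR mean. Ccr2 and Cx3cr1 differed from it by -1.58 and -2.69 and lay below all 6 tumors on this scale.

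Markers of other cells moved with these levels. All 5 tested neutrophil genes were above all 6 tumors in the metastasis, and the summed CPM of the 6 in the list (S100a8, S100a9, Csf3r, Ly6g, Mmp8 and Retnlg) was 2910 against 23.8 to 58.4. Ly6g was at 2.36 CPM there and at 0 to 0.14 CPM in the tumors. For 4 of 7 macrophage genes the metastasis was below all tumors, against 24.1% of all genes tested, with a sum of 1340 against 1460 to 1770 CPM. The margins were small: the lowest tumor was 1.02 (C1qb) to 1.11 (Cd68) times as high for these 4 genes. For 3 of 4 monocyte genes the metastasis was above all tumors, against 20.9% of all genes tested, with a sum of 635 against 41.4 to 182 CPM. Of that sum, Chil3 made up 394 CPM, against at most 2.03 CPM in the tumors. Ly6c2 was at 59.4 CPM against at most 7.02 CPM and F13a1 at 73.0 CPM against at most 60.9 CPM. Plac8, at 109 CPM, lay within the tumors. Lymphocyte genes were higher as well, with a summed CPM of 43.5 against 7.43 to 28.7 for 10 T cell genes, of which 6 of the 9 tested were above all 6 tumors, and of 25.4 against 0.607 to 9.25 for 6 B cell genes. Genes of other tissue were also higher than in the tumors: the summed CPM of 4 lung epithelium genes (Sftpc, Sftpb, Scgb1a1 and Ager) was 7270 against 1.45 to 26.1, of 4 erythroid genes 7710 against 30.1 to 373 and of 4 endothelial genes 660 against 81.5 to 137. Leukocytes of the surrounding tissue and of the tumor cannot be told apart in 1 library, and the part of these cell types in the receptor levels was not tested.

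The chemokines that the 9 receptors bind were read from a list of 20 genes, of which 19 passed the filter. Between the tumor groups none was called, and 1 was higher and 1 lower at an unadjusted p under 0.05, 2 of 19 where 11.4% of all genes had such a p, and the median log2 fold change was -0.17. The higher one was Cxcl13, the ligand of Cxcr5, at 3.02, 0.607 and 0.660 CPM in EMT6-P and at 0.742, 25.4 and 24.3 CPM in EMT6-PTR, with a log2 fold change of 3.55 (SE 1.28, edgeR adjusted p = 0.427). The groups overlapped through EMT6-PTR replicate 1. The lower one was Ccl9, a ligand of Ccr1, at 94.0, 51.6 and 47.9 CPM against 44.1, 26.4 and 25.0 CPM, groups that did not overlap, with a log2 fold change of -1.02 (SE 0.34, edgeR adjusted p = 0.427). The ligands of Ccr2 all had a fitted value below 0, at -1.03 for Ccl2, -0.87 for Ccl7 and -0.89 for Ccl12, with adjusted p-values of 0.537, 0.628 and 0.497 (edgeR). Ccl2 was at 87.8, 55.2 and 33.5 CPM in EMT6-P and at 33.9, 44.7 and 7.85 CPM in EMT6-PTR.

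In the metastasis, 12 of the 19 ligands were at least 2-fold above the EMT6-PTR mean on the log2 scale, against 12.4% of all genes, and 9 were above all 6 tumors, against 20.9%. The highest levels were those of a pair of Cxcr2 ligands, with Cxcl2 at 816 CPM against 1.41 to 12.9 CPM in the tumors and Cxcl1 at 513 CPM against 5.35 to 47.0 CPM. Cxcl3 was at 64.5 CPM against 1.52 to 8.74 CPM and Cxcl5 at 94.6 CPM against 8.63 to 67.9 CPM, while Ppbp, at 1.28 CPM, lay within the tumors. Of the ligands of Ccr1, Ccl3 was at 202 CPM against 1.98 to 8.32 CPM, and Ccl5, Ccl7 and Ccl9 lay within the tumors at 5.68, 41.4 and 82.0 CPM. Ccl2, the ligand of Ccr2, was at 227 CPM, above the highest tumor at 87.8 CPM, in the library where Ccr2 itself was at 28.1 CPM. Ccl12 was at 29.0 CPM and within the tumors.

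Cxcl12, the ligand of Cxcr4, was at 77.8 CPM in the metastasis against 1.80 to 6.37 CPM in the tumors, and Cxcl13 was at 30.3 CPM. The ligands of Cxcr3 lay within the tumors, with Cxcl9 at 17.1, Cxcl10 at 23.8 and Cxcl11 at 2.84 CPM, and so did Cxcl16, the ligand of Cxcr6, at 146 CPM. Cx3cl1, the ligand of Cx3cr1, was at 45.7, 54.2 and 58.1 CPM in EMT6-P, at 48.0, 89.7 and 119 CPM in EMT6-PTR and at 112 CPM in the metastasis. Its highest level among the tumors, in EMT6-PTR replicate 3, fell in the tumor with the lowest Cx3cr1. Of the ligands of Ccr7, Ccl19 held at most 0.0557 CPM in any library and Ccl21a, which has near-identical copies in the mouse genome, was at 0 to 1.84 CPM in the tumors and 2.92 CPM in the metastasis.

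**Figure D5:**
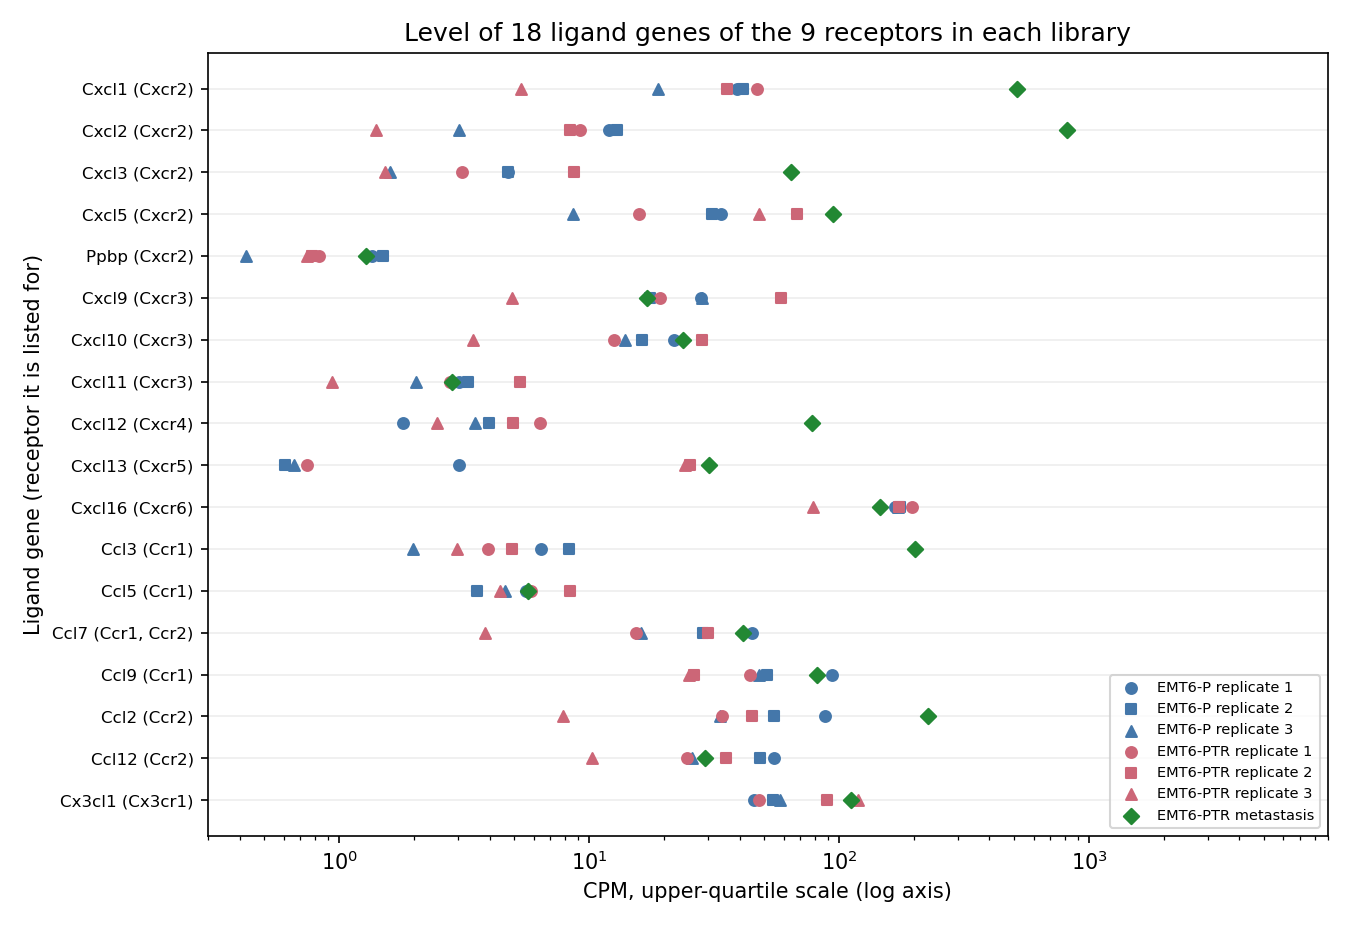
Level of 18 ligand genes in each library, as CPM on the upper-quartile scale on a log axis, with the receptor each is listed for in brackets. Ccl19 and Ccl21a, which have values of 0, are left out. The metastasis is far above the tumors for Cxcl1, Cxcl2, Cxcl3, Cxcl12 and Ccl3, and inside their range for Cxcl9, Cxcl10, Cxcl11 and Cxcl16.

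Of 15 other chemokine receptors and decoy receptors, 7 passed the filter and none was called or had an unadjusted p under 0.05 between the tumor groups. The smallest p-values were those of Ackr2, a scavenger of inflammatory CC chemokines (log2 fold change 0.55, SE 0.37), Ackr4, a scavenger of Ccl19 and Ccl21 (1.59, SE 1.05), and Ccr3, the eosinophil receptor (0.76, SE 0.72), with adjusted p-values of 0.560, 0.560 and 0.672 (edgeR). In the metastasis 4 of the 7 were above all tumors, against 20.9% of all genes. Ccrl2, a chemerin-binding receptor of neutrophils and endothelium, was at 197 CPM against 2.74 to 5.93 CPM, and Ackr2 was at 44.6 CPM against 0.561 to 1.35 CPM. Cxcr1, the nearest relative of Cxcr2, held at most 7 estimated counts in any library. Ccrl2 and Cxcr1 were picked out after their values were seen.

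Of 20 genes that carry the signal of these receptors inside the cell, all tested, none was called, and 1 was higher and 1 lower at an unadjusted p under 0.05, 2 of 20 against 11.4% of all genes, with a median log2 fold change of -0.12. The higher one was Arrb1, a β-arrestin that ends receptor signalling, at 51.8, 53.4 and 50.8 CPM in EMT6-P and at 58.5, 93.0 and 71.7 CPM in EMT6-PTR (log2 fold change 0.52, SE 0.19, edgeR adjusted p = 0.427). The lower one was Rgs19, which speeds the turning off of inhibitory G proteins, at 63.5, 53.8 and 60.8 CPM against 51.1, 43.7 and 34.3 CPM (log2 fold change -0.46, SE 0.18, edgeR adjusted p = 0.432). Rgs14, of the same family, followed with -0.49 (SE 0.27, edgeR adjusted p = 0.505). In the metastasis 11 of the 20 were above all 6 tumors, against 20.9% of all genes, and 2 were below, against 24.1%.

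For each tested receptor, up to 3 genes with the most similar log2 CPM over the 7 libraries were taken from 7699 genes with a mean CPM of at least 1 and a log2 range of at least 1. These correlations describe 7 libraries that share their scaling and include 2 that stand apart, EMT6-PTR replicate 3 and the metastasis. Ildr2, Pde4b and Mbp were nearest to Cxcr2 (Pearson's r 0.998, 0.996 and 0.995 over 7 libraries), and Wnt4, Tnfsf14 and Nova2 were nearest to Ccr1 (r 0.989, 0.987 and 0.986). Pprc1, Tspan6 and Erg28 followed Ccr2 (r 0.989, 0.989 and 0.984), and Pcca and Ttc21b followed Cx3cr1 (r 0.996 and 0.995). Among the rest, Tubb6, Coq10b and Gm6781 were nearest to Cxcr6 (r 0.986, 0.985 and 0.985) and Gm29233, Stc2 and Ifrd1 to Cxcr4 (r 0.962, 0.961 and 0.956). Ccr7 was followed by Parp11, Ptprc and Tigit (r 0.989, 0.985 and 0.983), of which Ptprc is the pan-leukocyte phosphatase CD45 and Tigit an inhibitory receptor of T cells and NK cells. Ptprc was at 63.6, 57.8 and 59.8 CPM in EMT6-P, at 83.4, 92.5 and 33.0 CPM in EMT6-PTR and at 90.0 CPM in the metastasis.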

How the data were processed

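RNA of 6 primary tumors and 1 metastasis was sequenced from stranded polyadenylated libraries. The authors checked reads with FastQC 0.11.5, aligned them with STAR 2.6.0a to GRCm38 with GENCODE annotation, and estimated gene counts with RSEM 1.3.1. The deposited values are these estimated counts per gene, before filtering or scaling. Columns of other samples numbered 0.

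Counts were rounded and filtered with filterByExpr over the 6 tumors. Upper-quartile factors were computed over the 6 tumors for the comparison and over all 7 libraries for the levels in CPM. The 3 EMT6-PTR and 3 EMT6-P tumors were compared with edgeR 4.0.16 (quasi-likelihood test, Benjamini-Hochberg adjustment over 15645 genes, threshold 0.05) in R 4.3.3. Logged levels used a prior count of 2. The SE was derived from the F value. Alternatives used limma 3.58.1, DESeq2 1.42.0, TMM factors, other filters, a replicate block and leaving out each tumor. The fits were tested on simulated counts with 200 changed genes, each moved up or down by 2 on the log2 scale. At a dispersion of 0.1, edgeR, DESeq2 and limma-voom recovered 178, 178 and 172 of them, with 2, 18 and 2 false calls. At a dispersion of 0.4, edgeR and limma-voom recovered 0, and DESeq2 recovered 47 with 35 false calls. The simulation gave all genes and both groups the same dispersion, unlike these tumors, with 0.0266 in EMT6-P and 0.246 in EMT6-PTR. It therefore does not give the power of the comparison made here. A lack of calls among widely spread tumors does not show that levels were equal.

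A later GENCODE release for that assembly gave positions, and symbols for 53274 of 53465 identifiers. Levels per kb use the union of exons. The 9 receptors are given in full, with listed ligands, the 3 smallest p-values among other receptors and among signalling genes, marker lists as sums, and up to 3 most similar genes of each tested receptor. A few genes that these rules cover are not reported here. Members and lists were chosen with earlier results of these data known.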

Additional observations from a re-analysis of the deposited data

How the results depend on the processing

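No receptor was called under any of the alternatives run, and counts of all called genes moved only with DESeq2, from 0 to 281 (138 higher and 143 lower), none of them a receptor. Log2 fold changes ranged, when 1 tumor was left out, from -0.02 to 0.47 for Cxcr4, -0.99 to 0.26 for Ccr2, -1.43 to -0.34 for Cxcr6, -0.04 to 1.44 for Ccr7 and -0.75 to 0.32 for Cx3cr1. Ccr7 was also -0.30 under limma-voom and Cx3cr1 0.11 with limma-voom sample weights, and the cause was not tested. Cxcr2 stayed above 0, and Ccr1 and Cxcr6 below 0, in all 14 alternatives. With limma-voom sample weights, Cxcr2 and Cxcr4 had an unadjusted p under 0.05, 2 of 7 where 2858 of 15645 genes did. Without EMT6-PTR replicate 1, Ccr1 had such a p (edgeR), 1 of 7 where 2808 of 15645 genes did. The number of receptors whose groups did not overlap ranged from 0 to 3 when 1 tumor was left out, with fewer tumors to overlap. The highest, 3, was without EMT6-PTR replicate 3. It was 1 with CPM on the total count, an alternative chosen after seeing the data. Relative to pan-leukocyte genes, leaving out 1 tumor gave -0.05 to 0.73 for Cxcr3, -0.17 to 0.26 for Ccr1, -0.90 to 0.20 for Ccr2, -0.47 to 1.34 for Ccr7 and -0.47 to 0.22 for Cx3cr1. With Ptprc alone as reference Cxcr3 was -0.06 and Ccr7 -0.10.

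With the replicate number as a replicate block, 0 genes were called, 1268 had an unadjusted p under 0.05 against 1786 without it, and no receptor was called. Same-numbered tumors correlated in their deviations by 0.259, 0.253 and 0.0384. The values for replicates 1 and 2 were the highest of all pairs, while EMT6-P replicate 3 correlated best with EMT6-PTR replicate 1 (0.0979). The numbers were not taken to pair the samples, because nothing states that they do. Cxcr3 and Cxcr5, with at most 23 counts in any tumor, entered the fit across all genes only without the filter on low counts.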
